A study of Mus musculus with 3 samples.

Results

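Barcodes of low RNA content made up 1136 of the 7717 droplet barcodes that held at least 2000 unique molecular identifiers (UMIs, 1 per captured RNA molecule) in 3 single-cell RNA sequencing libraries of mouse embryonic stem cells. They were chosen by depth alone, as barcodes with at least 2000 and under 14000 UMIs. Each library's low barcodes were set against its own reference cells, defined as barcodes with at least 15000 UMIs of which 1 to 20% came from mitochondrially encoded genes (symbols starting with mt-). There were 6480 reference cells. All measures of a barcode come from the UMIs that chose it, and each condition had 1 library. The values are therefore descriptions without a test or a replicate check, and their 95% intervals cover counting error only.

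E14, an embryonic stem cell line (129/Ola), was cultured on gelatin in medium with serum and leukemia inhibitory factor. The treated libraries came from cells kept for 3 or 6 h in 250 µg/mL cycloheximide, an inhibitor of translation elongation, with 0.007% ethanol as its solvent. The control had 6 h of ethanol alone, and all exposures started 24 h after plating. All 3 suspensions were trypsinised, checked for viability with propidium iodide and acridine orange, frozen with DMSO and shipped on dry ice before 10x Genomics 3' v3 barcoding. Freezing was thus common to the control and the treated libraries.

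As background, a droplet that receives an intact cell yields RNA of cytoplasm, nucleus and mitochondria together, and a cell with a broken plasma membrane loses cytoplasmic messenger RNA first and keeps RNA held in mitochondria and in the nucleus. Malat1 is a long noncoding RNA retained in nuclear speckles, and its level in a barcode is often read as a sign of nuclear RNA. Droplets also take up free RNA from the suspension, which was measured here from the barcodes with 10 to 100 UMIs.

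The libraries held 115188502 to 150987519 UMIs. Low barcodes held 2.28% of the control library's UMIs, 1.34% after 3 h and 1.09% after 6 h. Low barcodes had a median of 4082 UMIs in the control, 4517 after 3 h and 3983 after 6 h, against 43160, 51726 and 46200 in the reference cells. Markers of other cell types were low in low barcodes. The 9 fibroblast or feeder markers summed to 20.1 to 23.9 counts per 1000000 UMIs (CPM) in low barcodes and 16.5 to 18.5 CPM in reference cells, with 6 of the 9 at 0 in low barcodes of every library. The 8 primitive endoderm markers summed to 13.4 to 37.5 CPM against 15.9 to 25.8 CPM, the 7 mesoderm and neural markers to 17.2 to 32.3 CPM against 20.3 to 27.4 CPM, and the 7 listed 2-cell-like markers were all at 0 in low barcodes, which allows up to 1.03, 1.94 and 1.83 CPM (3 counts of the total). Over 20% mitochondrial UMIs, a range described further on, the fibroblast list stood on 15, 6 and 14 UMIs and the primitive endoderm list on 17, 24 and 3 UMIs in all. Scaled to non-mitochondrial UMIs the fibroblast list stood at 66.1, 21.5 and 42.2 CPM there against 19.4, 18.6 and 17.0 CPM in reference cells, with 7, 6 and 6 of 9 markers at 0. The primitive endoderm list stood at 74.9, 85.8 and 9.05 CPM against 27.0, 22.5 and 16.4 CPM, with 5, 3 and 7 of 8 at 0, and the part of these cell types in the results was not tested. Embryonic stem cell markers summed to 7411, 4944 and 4318 CPM in low barcodes of the control, 3 h and 6 h libraries. They summed to 7260, 8205 and 7318 CPM in reference cells and to 6023, 6139 and 5631 CPM in free RNA. On this scale of all UMIs, low barcodes thus lay above free RNA in the control and below it in both treated libraries. Mitochondrial UMIs took a larger share of treated low barcodes than of free RNA, which lowers their CPM on this scale. In CPM of non-mitochondrial UMIs, free RNA stood at 6211, 6304 and 5738. Low barcodes under 5% mitochondrial UMIs lay above it in every library, at 9327, 7916 and 7617. Those at 5 to 20% stood at 6285, 6173 and 4373. Over 20% these markers stood at 4773, 3938 and 3346, below free RNA in every library. Whether this marker RNA came from cells in the low barcodes was not tested. One low barcode of the control and 1 of the 3 h library had the sequence of a deep barcode of another library, 1 sequence was low in both the control and the 6 h library, and no low barcode lay 1 base from a deep barcode of its own library.

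The control library held more low barcodes than either treated library. There were 559 among 2817 barcodes with at least 2000 UMIs in the control (19.8%, exact Clopper-Pearson interval 18.4 to 21.4%). The 3 h library had 260 of 2008 (12.9%, 11.5 to 14.5%), and the 6 h library 317 of 2892 (11.0%, 9.85 to 12.2%). Per 100 reference cells this came to 25.6, 15.0 and 12.4 low barcodes. The intervals of the treated libraries overlapped each other and lay below that of the control. Cell loading and recovery differ between any 2 libraries, and their part in these shares was not tested.

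**Figure D1:**
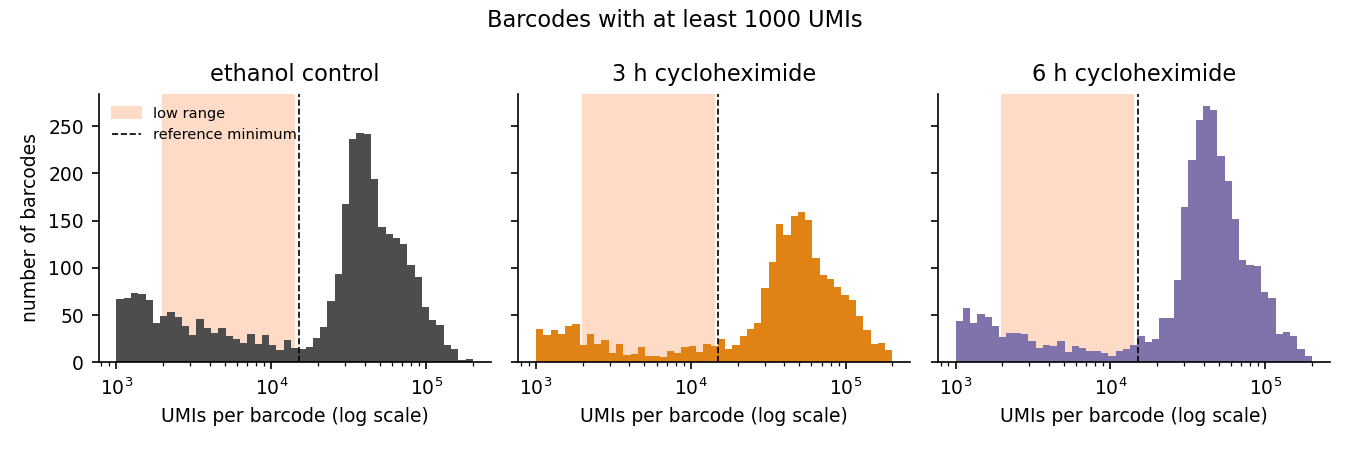
UMIs per barcode (x axis, log scale) against the number of barcodes (y axis) in each library, for barcodes with at least 1000 UMIs. The shaded band is the low range from 2000 to under 14000 UMIs and the dashed line the 15000 UMIs from which reference cells were taken; the low range is filled more in the control (559 barcodes) than after 3 h (260) or 6 h (317) of cycloheximide.

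The upper limit of the range cut through sparse barcodes. From 14000 to under 15000 UMIs, in neither set, lay 9 barcodes in the control, 8 after 3 h and 13 after 6 h. Just inside the limit, at 10000 to under 14000 UMIs, the median mitochondrial share was 6.48% in the control, 5.23% after 3 h and 4.73% after 6 h. Just outside, at 15000 to under 20000 UMIs, it was 5.31%, 4.38% and 3.95%. The spread was wider inside the limit: the quartiles in the control were 1.07 and 10.3% just inside and 4.15 and 7.12% just outside. Below the lower limit, barcodes of 1000 to under 2000 UMIs numbered 410, 216 and 295, with median shares of 40.8%, 86.3% and 78.5%.

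Mitochondrial RNA took a larger share of the UMIs in low barcodes than in reference cells of every library. Summed over barcodes, the share was 9.82% (9.79 to 9.86%) in control low barcodes, 21.5% (21.4 to 21.5%) after 3 h and 20.2% (20.2 to 20.3%) after 6 h. Reference cells had 4.57%, 3.51% and 2.94%, although their range was limited by the rule. Free RNA had 3.03%, 2.61% and 1.86%, below both. Individual low barcodes ranged from 0 to 96.3% in the control, 95.9% after 3 h and 96.3% after 6 h. The medians showed that the libraries held different mixtures: 1.53% in the control (quartiles 0.858 and 12.2%), 26.4% after 3 h (6.48 and 54.6%) and 22.2% after 6 h (7.09 and 42.1%). The median control low barcode therefore had a smaller mitochondrial share than the median reference cell (4.58%). The median treated low barcode had a share several times larger than that of its reference cells (3.52% after 3 h and 2.89% after 6 h). These are shares of each barcode's UMIs, not amounts of mitochondrial RNA, since low barcodes held far fewer UMIs.

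All 13 mitochondrially encoded messages had a positive ratio in each library. They encode subunits of the respiratory chain and of ATP synthase. Between low barcodes and reference cells their median log2 ratio of CPM was 1.03 in the control, 2.57 after 3 h and 2.73 after 6 h, beside medians of -0.06, 0.08 and 0.08 over all 7994 genes tested (10 CPM or more on average over the low and reference profiles). Of the 13, 7 were at least 2-fold higher in the control and all 13 in each treated library, against backgrounds of 0.563%, 11.3% and 13.9% of all genes at least 2-fold higher in those libraries. The cytochrome c oxidase subunit message mt-Co2 stood at 18381, 45141 and 41627 CPM in low barcodes of the control, 3 h and 6 h libraries and at 7592, 6765 and 5640 CPM in reference cells. The light-strand message mt-Nd6, whose gene lies opposite the others, had ratios of 1.48, 2.92 and 3.28, the highest of the 13 in each library. Lowest in the control was mt-Nd1 with 0.63. Because the counting of overlapping mitochondrial genes is not given in the sources used here, differences among neighbouring messages such as mt-Nd4l (1.47, 2.86 and 3.10) and mt-Nd4 (0.82, 2.38 and 2.63) are uncertain.

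Splitting the low barcodes by mitochondrial share, a split chosen after these values were seen, separated the difference between the libraries into its parts. Under 5% lay 369 control barcodes, 54 after 3 h and 72 after 6 h. These were 13.1% (11.9 to 14.4%) of all barcodes with at least 2000 UMIs in the control, 2.69% (2.03 to 3.49%) after 3 h and 2.49% (1.95 to 3.13%) after 6 h. Between 5 and 20% lay 75, 59 and 80 barcodes, or 2.66%, 2.94% and 2.77%, with overlapping intervals. Over 20% lay 115, 147 and 165, or 4.08% (3.38 to 4.88%), 7.32% (6.22 to 8.55%) and 5.71% (4.89 to 6.61%). The treated libraries thus held fewer low barcodes of low mitochondrial share and no fewer of high share.

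**Figure D2:**
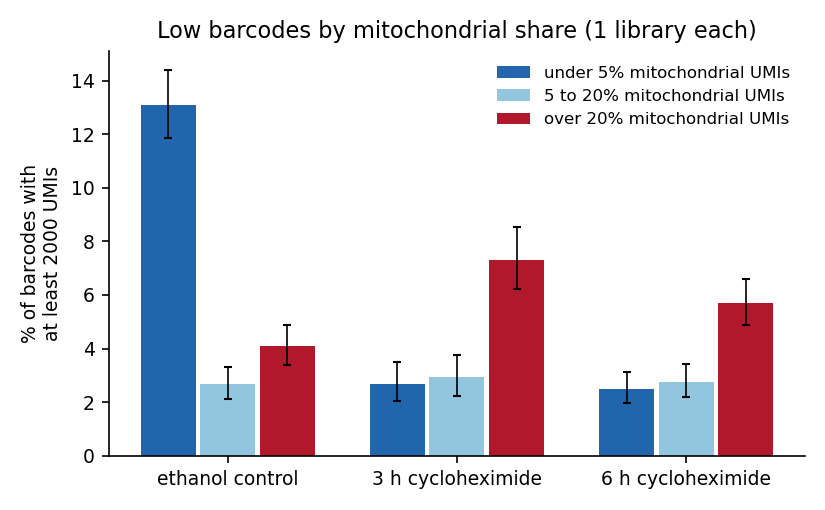
Low barcodes under 5%, at 5 to 20% and over 20% mitochondrial UMIs as a percentage of all barcodes with at least 2000 UMIs (y axis) in each library (x axis); error bars are exact 95% binomial intervals and cover counting error only. The control bar under 5% (13.1%) stands above those of the treated libraries (2.69 and 2.49%), while the bars over 20% are 4.08, 7.32 and 5.71%.

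Within the range under 5%, the control stood apart both at the lowest shares and above them. Under 1% lay 178 control low barcodes, 15 after 3 h and 17 after 6 h. At 1 to 5% lay 191, 39 and 55, and here the control barcodes had a median share of 1.51%, below the 4.58% of its reference cells, whereas the medians of 3.38% and 3.45% in the treated libraries were close to the 3.52% and 2.89% of theirs. Depth differed as well, with medians of 3533 UMIs in the control, 10072 after 3 h and 8207 after 6 h at 1 to 5%.

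Malat1 (chromosome 19, 5795690 to 5802672, minus strand, a lincRNA in GENCODE M21 on GRCm38) was higher in low barcodes of every library when all were summed. It stood at 3219 CPM in control low barcodes, 8791 CPM after 3 h and 12688 CPM after 6 h, against 2581, 2716 and 3121 CPM in reference cells. The log2 ratios were 0.32 (0.29 to 0.35), 1.69 (1.67 to 1.72) and 2.02 (2.00 to 2.04). Free RNA held less of it than either set, at 1745, 2126 and 1948 CPM. The sums hid a wide spread: 132 of 559 control low barcodes (23.6%), 52 of 260 after 3 h (20%) and 37 of 317 after 6 h (11.7%) had no Malat1 UMI, against 1, 0 and 1 reference cells. Depth sets such counts in part, and at 2000 UMIs drawn from each barcode the share with Malat1 was 61.7%, 75.4% and 83.9% in low barcodes and 92.6%, 94.9% and 96.2% in reference cells.

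Malat1 followed the mitochondrial share in the control in both directions. To keep mitochondrial RNA from diluting the rest, levels by mitochondrial range were scaled to CPM of the UMIs that are not mitochondrial. On that scale control Malat1 was 543 under 5%, 6823 at 5 to 20% and 18481 over 20%, with 2704 in reference cells. After 3 h the same levels were 3806, 8603 and 27487, with 2815 in reference cells, and after 6 h 3932, 17559 and 32588, with 3216. Over 20% the log2 ratios to reference cells were thus 2.77, 3.29 and 3.34, all high. Under 5% they were -2.32 in the control and 0.44 and 0.29 in the treated libraries. These sums were carried by some barcodes with much Malat1. The median barcode under 5% stood at 349, 1341 and 997 CPM of non-mitochondrial UMIs, below the median reference cell (2310, 2371 and 2758) in all 3 libraries, and 8 of 369, 19 of 54 and 19 of 72 barcodes lay above that reference median. At 1000 non-mitochondrial UMIs per barcode, 37.4% of the control barcodes under 5% had a Malat1 UMI (32.4 to 42.6%), against 83.7% of control reference cells. After 3 and 6 h the corresponding barcodes had 55.6% (41.4 to 69.1%) and 56.9% (44.7 to 68.6%), against 85.4% and 88.6%.

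**Figure D3:**
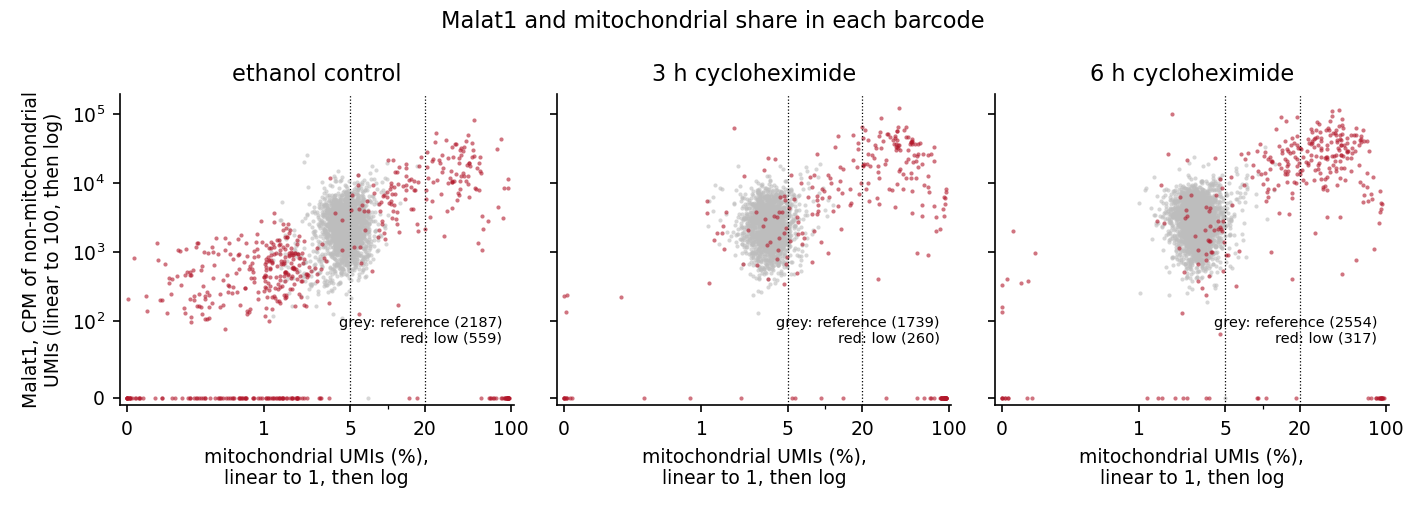
Each point is 1 barcode, with its mitochondrial share (x axis, %, linear to 1 and then logarithmic) and its Malat1 level in CPM of non-mitochondrial UMIs (y axis, linear to 100 and then logarithmic); reference cells are grey, low barcodes red, and dotted lines mark 5 and 20%. Low barcodes extend to the upper right in all 3 libraries, and the group at the lower left is dense in the control and sparse after cycloheximide. All low barcodes under 5% number 369, 54 and 72, of which 8, 19 and 19 lie above the median reference cell for Malat1.

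Under 1% mitochondrial UMIs, the few treated barcodes were low in Malat1 as well. The level was 369.7 CPM of non-mitochondrial UMIs in the 178 control barcodes, from 356 Malat1 UMIs. It was 50.9 in the 15 barcodes of the 3 h library, from 5 UMIs, and 215 in the 17 of the 6 h library, from 15 UMIs. Barcodes low in both kinds of RNA thus occurred in all 3 libraries and differed in number, and their profiles differed as well. In the control Gapdh stood at 7463 CPM of non-mitochondrial UMIs against 3387 in reference cells. It stood at 3512 against 3453 after 3 h and at 3833 against 3403 after 6 h. Gm42418, a gene described further on, stood at 963 against 1618, 4469 against 1156 and 5212 against 1057. Summed ribosomal protein genes lay above reference cells in all 3 libraries, and endoplasmic reticulum chaperones below them. At 1 to 5% the summed Malat1 level was 747 in the control, 4871 after 3 h and 4501 after 6 h. The median barcode there had 494, 2224 and 1737 CPM, with upper quartiles of 920, 3849 and 3680, so the treated sums lay above the upper quartiles of their own barcodes.

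The control group with little mitochondrial RNA and little Malat1 also reached past the low range. In the control, 62 barcodes with at least 15000 UMIs had under 1% mitochondrial UMIs, against 1 after 3 h and 8 after 6 h, and the rule keeps them out of the reference cells. The 62 control barcodes held 6357765 UMIs with 0.213% mitochondrial and 262 CPM Malat1. Scaled to non-mitochondrial UMIs, their Malat1 level was 263 CPM, against 369.7 in control low barcodes under 1% and 2704 in control reference cells. Summed, the 8 deep barcodes of the 6 h library had 3800 CPM Malat1 and 0.662% mitochondrial UMIs. Together they did not share the low Malat1 level of the control group, although 1 of the 8 had no Malat1 UMI. The 1 deep barcode of the 3 h library had no Malat1 UMI among 22158 UMIs, with 0.0316% mitochondrial.

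At the other end lay barcodes with almost nothing but mitochondrial RNA. Over 80% mitochondrial UMIs were found in 26 control low barcodes, 38 after 3 h and 20 after 6 h, with medians of 171.5, 194 and 241 UMIs outside the mitochondria. No Malat1 UMI was seen in 21, 30 and 14 of them, and the summed level was 4430, 996 and 1303 CPM of non-mitochondrial UMIs. The high Malat1 came from the 89, 109 and 145 barcodes at 20 to 80%, with 18825, 28271 and 33104 CPM. Across all low barcodes Spearman's rho between mitochondrial share and thinned Malat1 UMIs was 0.51 in the control (n = 559 barcodes), -0.05 after 3 h (n = 260) and 0.21 after 6 h (n = 317), given as a description of barcodes that share a library. The 2000 UMIs drawn per barcode included mitochondrial ones, so a high share left fewer UMIs in which Malat1 could be counted. Over 20% the median left was 1088, 998 and 1176 non-mitochondrial UMIs, and rho was not computed at equal non-mitochondrial depth.

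Most of the other nuclear long noncoding RNAs were higher in low barcodes of the treated libraries. Over all low barcodes the 14 tested members of the list had median log2 ratios of 0.46 in the control, 1.74 after 3 h and 2.01 after 6 h. Of the 14, 2, 13 and 13 were at least 2-fold higher, against 0.563%, 11.3% and 13.9% of all genes. At least 2-fold lower were 0 of the 14, against 0.413%, 3.2% and 3.97%. The floor for these 14 averages low and reference profiles, so RNAs high in low barcodes pass it more easily. The member below 2-fold in both treated libraries was Pvt1. By mitochondrial range, 5 members passed a floor of a mean of 50 CPM of non-mitochondrial UMIs over the reference profiles (3027 genes passed it). These were Malat1, Kcnq1ot1, Meg3, Rian and Gm26917, the last of which lies next to ribosomal RNA repeat sequence on chromosome 17. Under 5% all 5 were at least 2-fold lower in the control, where 20.1% of all genes were. Under 5% in the treated libraries 2 of the 5 were at least 2-fold higher after 3 h and 1 after 6 h, against 0.793% and 0.396% of all genes. Over 20% all 5 were at least 2-fold higher in every library, against 17.5%, 15% and 14.9%.

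Kcnq1ot1 is the antisense transcript that silences an imprinted cluster on chromosome 7 (143203458 to 143296549, minus strand). Under 5% it stood at 36.5 CPM of non-mitochondrial UMIs in the control, 286 after 3 h and 267 after 6 h. Over 20% it stood at 1538, 1724 and 1855. Reference cells had 237, 193 and 219. Kcnq1ot1 was thus several times below reference cells in the control barcodes under 5% and several times above them over 20% in all 3 libraries. Meg3 and Rian, maternally expressed RNAs of the imprinted cluster on chromosome 12, had log2 ratios of -1.35 and -1.47 in control barcodes under 5% and of 2.44 to 3.30 over 20% in the 3 libraries. Tug1 was among the 12 genes highest in all 3 libraries, at 49.8, 109 and 94.5 CPM in low barcodes against 21.2, 32.9 and 33.4 CPM in reference cells. Neat1, the scaffold of paraspeckles, reached 60.1, 55.0 and 48.8 CPM against 41.8, 15.6 and 11.3 CPM. Pvt1 did not follow the list: below the floor by range, its ratios over 20% were 1.63 in the control but 0.12 and 0.14 after cycloheximide.

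Messages that keep unspliced introns in the nucleus also had a negative median in control barcodes under 5% and positive medians over 20% in each library. Among 9 tested transcripts with detained introns, which include the splicing kinase gene Clk1 and the speckle protein genes Son and Srrm2, the median log2 ratio under 5% was -0.98 in the control, 0.40 after 3 h and 0.15 after 6 h. Of the 9, 3 were at least 2-fold lower in the control (Luc7l2, Son and Srrm2), where 20.1% of all genes were, and none after cycloheximide, where 0.132% and 0.0991% of all genes were. Over 20% the medians were 1.78, 1.37 and 1.56, with 7, 5 and 6 of the 9 at least 2-fold higher, against 17.5%, 15% and 14.9% of all genes. Son, for example, stood at 1177, 1542 and 1617 CPM of non-mitochondrial UMIs over 20%, against 361, 417 and 380 in reference cells. Medians over all 3027 genes were -0.18, -0.01 and -0.000305 under 5% and -0.11, -0.27 and -0.26 over 20%. The numbered zinc finger genes, 33 of them, had medians of -0.75, 0.38 and 0.34 under 5% and 1.18, 0.87 and 0.48 over 20%. On the scale of all UMIs the zinc finger medians over 20% were 0.35, -0.04 and -0.29, so their direction in the treated libraries depended on the scale.

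Scaling mattered over 20% because mitochondrial RNA filled much of each total. Scaling to all UMIs lowered the median over all genes by 0.82 in the control, by 0.91 after 3 h and by 0.77 after 6 h on the log2 scale. The nuclear RNAs, the transcripts with detained introns and the chaperones of the endoplasmic reticulum kept positive medians on either scale. For lists near 0, such as pluripotency genes (0.18, -0.71 and -0.26, or -0.64, -1.62 and -1.03 on all UMIs), no direction is given.

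Chaperone genes of the endoplasmic reticulum, whose membrane is continuous with the nuclear envelope, had positive medians above 5% mitochondrial UMIs. Of the 11 tested, 9, 7 and 7 were at least 2-fold higher over 20%, where the background was 17.5%, 15% and 14.9%, and 7, 5 and 6 at 5 to 20%, where it was 7.3%, 10.1% and 14.5%. The medians over 20% were 1.39, 1.22 and 1.14. Hspa5, which encodes the luminal chaperone BiP, stood at 1450, 765 and 591 CPM of non-mitochondrial UMIs over 20% and at 410, 256 and 209 in reference cells. Canx, which encodes the membrane-bound lectin chaperone calnexin, had ratios of 1.78, 1.31 and 1.53. Manf, a secreted protein gene on the same list, did not share this (0.14, -0.50 and -0.22). Nor did Sec61b, a subunit gene of the translocon of this membrane that is on no list and was named after its values were seen (-1.93, -1.83 and -1.70). Under 5% in the control the chaperone median was -0.90, with 4 of 11 at least 2-fold lower, against 20.1% of all genes.

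Messages of cytosolic ribosomal proteins, nuclear genes of oxidative phosphorylation, translation factors and the cytoskeleton had negative medians over 20%. Over 20%, 65, 69 and 64 of 81 cytosolic ribosomal protein genes were at least 2-fold lower, beside 19.6%, 22.6% and 20.8% of all genes, with medians of -1.30, -1.34 and -1.30. Together these genes gave 115083 CPM of non-mitochondrial UMIs over 20% in the control and 281432 CPM in reference cells. The nuclear genes of oxidative phosphorylation, 77 of them, had medians of -1.05, -1.20 and -1.20, and 42, 50 and 52 were at least 2-fold lower. The translation factor genes had medians of -1.19, -1.04 and -1.11, and those of the actin and tubulin cytoskeleton -0.97, -0.98 and -1.0. In free RNA the ribosomal protein genes gave 217074 CPM in the control, so the level over 20% was below that of free RNA as well.

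In control barcodes under 5% several groups of cytoplasmic messages had medians slightly above 0. Ribosomal protein genes had a median of 0.24, oxidative phosphorylation genes 0.35, cytoskeletal genes 0.49 and glycolysis genes 0.39, and none of the first group passed 2-fold either way. Cytosolic heat shock chaperones had a negative median of -0.31, beside -0.18 over all genes. Of these 11 genes, 2 were at least 2-fold lower, where 20.1% of all genes were. The only 2 genes at least 2-fold higher there (0.0661% of 3027) were Gapdh, a glycolytic enzyme gene, with a ratio of 1.04, and Ndufa3, a subunit gene of respiratory complex I, with 1.10. Gapdh stood at 6947 CPM of non-mitochondrial UMIs against 3387 in reference cells. In the treated libraries it was at 2614 and 2823 against 3453 and 3403. Actb was higher under 5% in all 3 libraries, with ratios of 0.70, 0.48 and 0.46. Within the glycolysis list the membrane glucose transporter gene Slc2a3 differed from Gapdh: it had -1.49 under 5% in the control where Gapdh had 1.04, and 1.51 over 20% where Gapdh had -1.23.

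**Figure D4:**
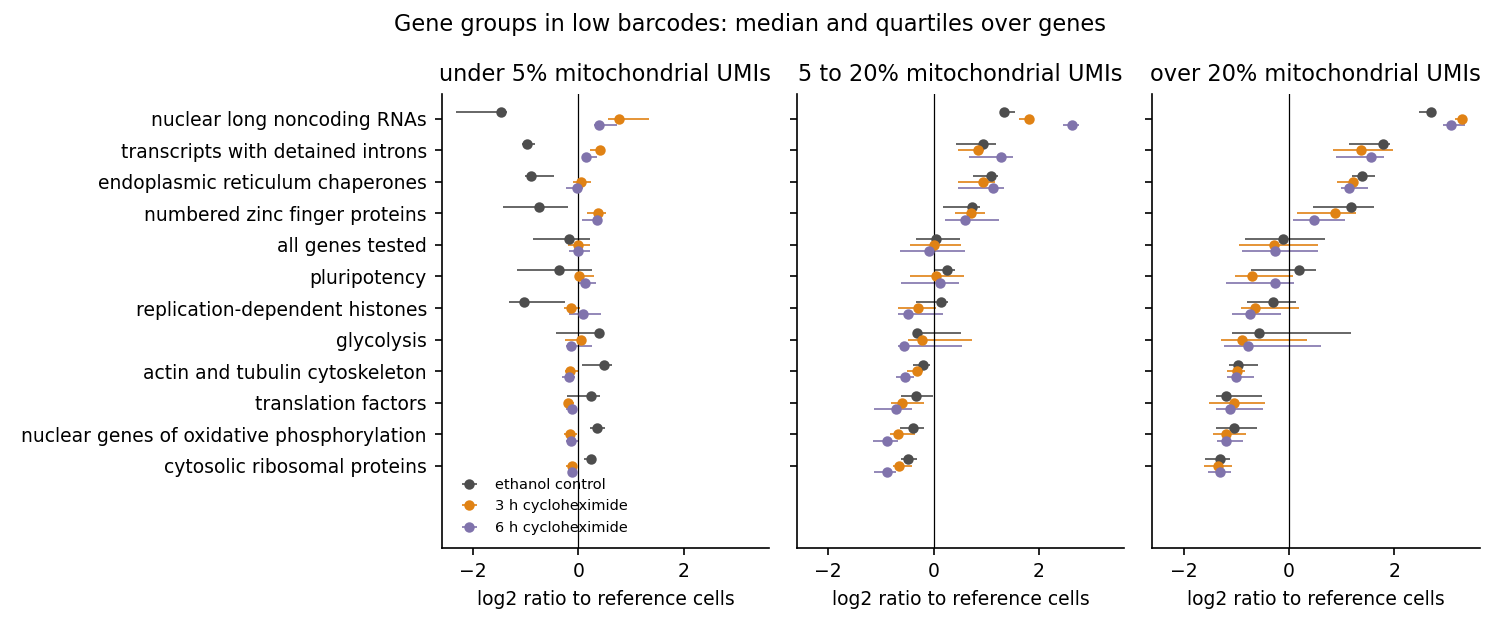
Median log2 ratio of low barcodes to reference cells (x axis, scaled to non-mitochondrial UMIs) for 11 gene groups and all genes tested (y axis), by mitochondrial range (panels) and library (colours); horizontal lines join the quartiles over genes. Over 20% the 3 libraries run in parallel, from nuclear long noncoding RNAs (2.70, 3.29 and 3.08) down to ribosomal proteins (-1.30, -1.34 and -1.30); under 5% the control runs the other way (-1.47 to 0.24) and the treated medians of these groups lie nearer 0, from 0.77 and 0.39 for nuclear long noncoding RNAs to -0.12 and -0.12 for ribosomal proteins.

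Counted over all genes, the control barcodes under 5% differed from reference cells almost wholly by lower genes. Of 3027 genes, 608 were at least 2-fold lower and 2 higher in the control. After 3 h 4 were lower (0.132%: Psmd9, Idh2, Washc3 and Wdr46, named after their values were seen) and 24 higher. After 6 h 3 were lower (0.0991%: Plk1, Selenok and Slc7a7, likewise) and 12 higher. Over 20% the 3 libraries had 530, 455 and 451 genes at least 2-fold higher and 592, 685 and 629 lower. Scaled to all UMIs these counts were 131, 111 and 130 higher and 1439, 1701 and 1550 lower, so the split between the directions depended on the scale. Of the same 3027, 325 were higher and 338 lower at this size in all 3 libraries, while under 5% none was in either direction. At 5 to 20%, 161 genes were higher in all 3 libraries and 4 lower (Fabp3, Id3, Mrpl22 and Sap18, also named after the fact), where 0.826%, 2.74% and 11.3% of all genes were lower in the single libraries.

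Transcript length ordered the genes in opposite ways in control barcodes under 5% and in barcodes over 20%. The 3026 genes with a length were ranked by their longest annotated transcript and cut into 5 groups of nearly equal size. In control barcodes under 5% the median log2 ratio went from 0.27 in the shortest group (374 to 1444 bases) to -1.19 in the longest (4645 to 123179 bases). Over 20% it went from -0.95 to 0.96 in the control, from -1.08 to 0.92 after 3 h and from -1.04 to 0.99 after 6 h. Free RNA went from -0.29 to -0.19 in the control, from -0.39 to 0.03 after 3 h and from -0.27 to -0.12 after 6 h. Treated barcodes under 5% went weakly the same way as those over 20%, from -0.13 to 0.27 after 3 h and from -0.12 to 0.26 after 6 h. Ranking by the span of the gene gave the same order, with 0.25 to -1.08 in control barcodes under 5% and -0.80 to 0.72 over 20%. The gene groups described above were not compared at equal transcript length, so the part of length in their medians was not tested.

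**Figure D5:**
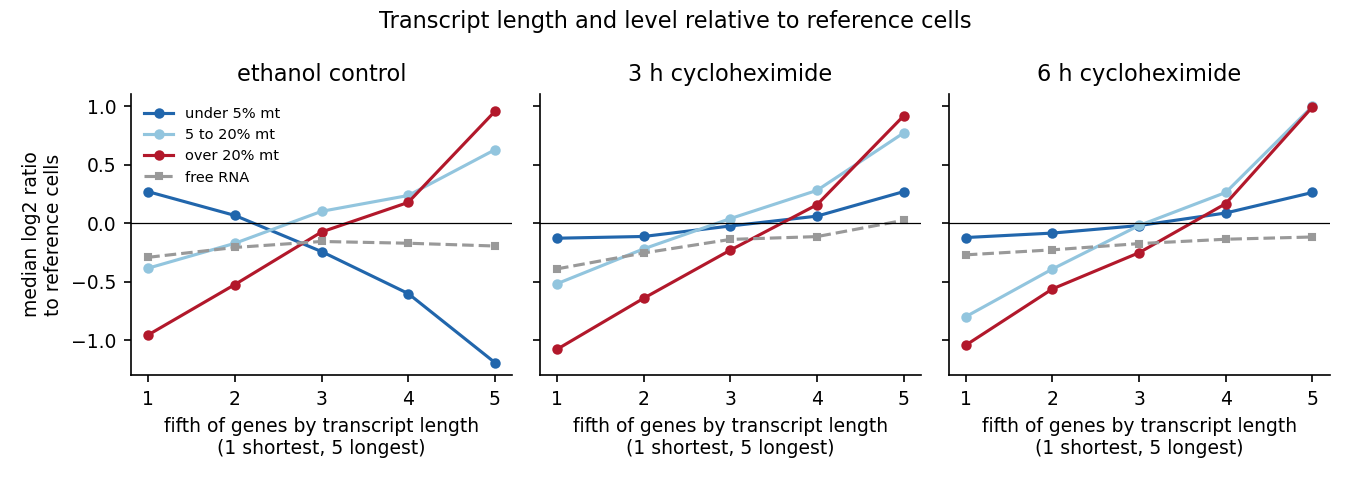
Median log2 ratio to reference cells (y axis, scaled to non-mitochondrial UMIs) in 5 groups of genes by longest annotated transcript (x axis, 1 shortest and 5 longest), for the 3 mitochondrial ranges of low barcodes and for free RNA (dashed). Control barcodes under 5% run from 0.27 to -1.19, barcodes over 20% end at 0.96, 0.92 and 0.99, and free RNA stays between -0.39 and 0.03.

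The number of genes detected at equal depth separated the same groups. With each barcode reduced to 1000 non-mitochondrial UMIs, the median control reference cell had 635 genes, barcodes under 5% had 568, those at 5 to 20% had 731 and those over 20% had 746. After 3 h the values were 662, 665, 751 and 762.5, and after 6 h 672, 689.5, 776 and 753. Of the barcodes over 20%, 38, 51 and 36 were too shallow and left out. Control barcodes under 5% were thus the only group with fewer genes than its reference cells at this depth.

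A further 3 genes led the list of genes higher in low barcodes of all 3 libraries. Gm42418 and AY036118, which overlap on chromosome 17 (39846958 to 39848788 and 39847113 to 39848035) in ribosomal RNA repeat sequence, and Lars2, the gene of mitochondrial leucyl-tRNA synthetase on chromosome 9, had log2 ratios of 2.30, 2.32 and 3.26 in the control, 3.72, 3.60 and 5.14 after 3 h and 3.98, 3.74 and 5.32 after 6 h. All 3 were far higher in free RNA: Gm42418 alone gave 118951, 109889 and 100993 CPM there, against 1544, 1116 and 1026 CPM in reference cells. On the non-mitochondrial scale Gm42418 reached 48.7%, 45.0% and 42.9% of its free RNA level in barcodes over 20%, and Lars2 51.8%, 51.6% and 49.0%. Malat1 in the same barcodes was at 1027%, 1259% and 1641% of its free RNA level. Control barcodes under 5% had 0.873% of the free level of Gm42418, below the 1.32% of reference cells, while treated barcodes under 5% had 7.36% and 7.77%. The part of free RNA in the other differences was not tested beyond these values.

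The remaining genes picked for the highest ratio in all 3 libraries were mt-Nd4l, mt-Co3, mt-Co2 and mt-Atp6 with mt-Nd6, the noncoding genes Tug1, Gm20342 and 4632427E13Rik, and Plxnb2, a semaphorin receptor gene (1.14, 1.74 and 2.07). The 12 picked for the lowest ratios were small in size. They included the histone genes Hist1h2ae (-0.91, -0.88 and -0.98), Hist1h1b (-1.32, -0.95 and -0.81) and Hist1h3e (-1.07, -0.69 and -0.70), the RNA-binding protein gene Ybx1 (-0.66, -0.65 and -0.82), and Cct2, a chaperonin subunit gene (-0.63, -0.91 and -0.67). Acp1, Ddah1, Prpf6, Dnttip2, Ncaph, Med30 and Lyar completed them, with ratios between -1.23 and -0.62. The gene Hist1h1b was lower in control barcodes both under 5% (-1.37) and over 20% (-1.84), so in the control it did not separate the ranges. The genes whose ratio was highest after 6 h relative to the control included Gm26917 (0.60, 2.89 and 2.85), Gm38393 (0.53, 1.93 and 2.62) and Eml5 (0.47, 1.68 and 2.44), besides Lars2.

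Over all low barcodes, 45 genes were at least 2-fold higher and 33 lower (0.413%) in the control, 906 and 256 (3.2%) after 3 h and 1115 and 317 (3.97%) after 6 h, of 7994. These counts depended on the scaling in the treated libraries. With trimmed mean (TMM) factors they were 372 and 1114 after 3 h and 470 and 1466 after 6 h, and with totals free of mitochondrial UMIs 1714 and 43, and 1925 and 45. Higher in all 3 libraries at this size were 37 genes, 7 of them mitochondrial, and the 1 lower gene was Fosb, an immediate early gene (-1.77, -1.35 and -1.34).

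Replication-dependent histone messages, made in S phase and lacking a poly(A) tail, were the group in which control low barcodes lay lowest among those of the cell cycle. Their median over 14 genes was -1.04 under 5% in the control, with 7 at least 2-fold lower where 20.1% of all genes were, and -0.14 and 0.09 after cycloheximide. The S phase list (25 genes) had -0.40 there and the G2M list (25 genes) -0.44, against -0.18 for all genes. Counts of near-identical histone genes are uncertain, since how shared reads were assigned is not given in the sources used here.

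Treated and control low barcodes were also compared directly. Among low barcodes, 1714 genes were at least 2-fold higher after 3 h than in the control (21.4% of 7994) and 393 lower (4.92%), and 2024 (25.3%) and 466 (5.83%) after 6 h. Among reference cells the counts were 353 (4.42%) and 50 (0.625%), and 711 (8.89%) and 207 (2.59%). Both times share the control library. The profiles of low barcodes held 2911255, 1545857 and 1639752 UMIs, against 111447486, 106842407 and 140321458 in reference cells, so their counting error was larger. The part of counting error and of the different mixtures in the larger counts among low barcodes was not tested. With TMM factors the low barcode counts were 650 and 1192 after 3 h and 807 and 1415 after 6 h, so which direction held more genes depended on the scaling.

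Within mitochondrial ranges, treated and control were compared over 3027 genes scaled to non-mitochondrial UMIs. The share of genes at least 2-fold higher was largest under 5%. In that range 178 of 369 control barcodes lay under 1% mitochondrial UMIs, against 15 of 54 after 3 h and 17 of 72 after 6 h. Median depths in the range were 4003, 9243 and 6665.5 UMIs. The part of these unlike mixtures in the counts was not tested. Genes and scale differ from those of the counts over 7994 genes, so the 2 sets of counts are not compared. Under 5%, 873 of 3027 genes (28.8%) were at least 2-fold higher after 3 h and 81 lower (2.68%), and 859 (28.4%) and 90 (2.97%) after 6 h. At 5 to 20% the counts were 95 (3.14%) and 34 (1.12%), and 214 (7.07%) and 124 (4.1%). Over 20% they were 166 (5.48%) and 120 (3.96%), and 233 (7.7%) and 154 (5.09%). Reference cells on the same scale had 83 (2.74%) and 6 (0.198%), and 155 (5.12%) and 46 (1.52%).

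Some genes differed between treated and control in the same direction over 20% and among reference cells. Over 20%, Hspa8, the gene of the constitutive cytosolic heat shock protein, differed from the control by -1.52 after 3 h and -2.79 after 6 h on the log2 scale, beside -1.35 and -2.60 in reference cells. Gadd45b had 2.38 and 2.62 beside 2.83 and 3.53. Histone genes had medians of 1.75 and 1.76 over the 14 tested, and 11 and 8 of them were at least 2-fold higher, where 5.48% and 7.7% of all genes were, beside medians of 1.96 and 1.98 in reference cells, with 10 and 10 of the 14 at least 2-fold higher where 2.74% and 5.12% of all genes were.

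The small nucleolar RNA host genes, whose spliced RNAs are known substrates of nonsense-mediated decay, a pathway that needs translation, behaved otherwise. Gas5 stood at 182 CPM of non-mitochondrial UMIs in control reference cells, 838 after 3 h and 1067 after 6 h. Over 20% it stood at 480, 454 and 582, without the step between control and treated. The treated to control log2 ratios of Gas5 were 2.20 and 2.55 in reference cells and -0.08 and 0.27 over 20%. Snhg12 gave 2.72 and 3.28 against -0.22 and 0.23, Snhg1 3.29 and 3.81 against 0.84 and 1.44, and Zfas1 3.56 and 4.0 against 0.84 and 1.09. In free RNA Gas5 had 1.80 and 2.17. Against their own reference cells, these 4 genes were therefore higher over 20% in the control (1.22 to 1.77) and lower after cycloheximide (-1.36 to -0.87). Under 5% the ratios of treated to control were near those of reference cells, with 2.36 and 2.50 for Gas5. For the whole list of 21 tested messages sensitive to this decay, the median against reference cells over 20% was 0.53 in the control, -0.77 after 3 h and -0.87 after 6 h, and the control median was -0.29 when scaled to all UMIs, so its direction depended on the scale.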

How the data were processed

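Per the file headers, the deposited matrices were written by Cell Ranger 4 and hold raw, unnormalized UMI counts; the submitters' processing notes name Cell Ranger 4.0.0 and mm10. The annotation is not given in the sources used here. Each matrix listed 32285 genes and 6794880 barcodes, and 32158 identifiers matched GENCODE M21, used for positions and lengths. Counts were summed over low barcodes, reference cells and free RNA (10 to 100 UMIs) of each library, scaled to CPM, and compared as log2 ratios with a prior of 0.5 counts. Intervals were exact conditional binomial for ratios and Clopper-Pearson for shares. Called means at least 2-fold. The ratio and interval code was tested on simulated data. Thinning drew 2000 UMIs, or 1000 non-mitochondrial UMIs, per barcode without replacement.

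Genes were named from fixed lists and, at a mean of at least 20 CPM, as the 12 highest and 12 lowest by the smallest absolute ratio among the 1055 of 5871 genes with the same sign and an interval excluding 0 in all 3 libraries, and the 5 each way with the largest difference between the 6 h and the control ratio. Genes counted 5 or fewer at a time were named after their values were seen. Members and lists were chosen with earlier results of these data known. No doublet caller was run and no doublets were removed. Total UMIs per library are given in the report and set the counting error. Alternatives covered UMI ranges, scaling, expression floors, the prior, the reference set, equal weights per barcode, free RNA subtraction and TMM factors from edgeR 4.0.16 in R 4.3.3, used for scaling only. Python 3.11.15 with numpy 2.4.6, scipy 1.17.1 and pandas 2.3.3 did the rest.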

Additional observations from a re-analysis of the deposited data

Results flagged for a closer look

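In low barcodes under 5% mitochondrial UMIs, the medians of 3 gene groups had opposite signs in the control and in both treated libraries and differed by at least 2-fold (1 log2 unit). Other groups had opposite signs by less, such as the cytoskeleton (0.49, -0.16 and -0.18), oxidative phosphorylation (0.35, -0.15 and -0.13) and pluripotency genes (-0.36, 0.01 and 0.13). The 6 h median log2 ratio minus that of the control was 1.86 for nuclear long noncoding RNAs, 1.14 for transcripts with detained introns and 1.10 for numbered zinc finger genes. These medians come from UMIs summed over barcodes, and the median treated barcode under 5% lay below the median reference cell for Malat1. Over 20%, messages sensitive to nonsense-mediated decay had a median of 0.53 in the control, -0.77 after 3 h and -0.87 after 6 h, a difference of -1.40 between 6 h and control. Scaled to all UMIs the control median was -0.29, so its sign depended on the scale. With 1 library per condition these differences were not tested.

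Over all low barcodes, 6 named genes had opposite signs in the control and in both treated libraries, and the differences were not tested. The 6 h ratio minus the control ratio was 2.09 for Clasp2, a microtubule plus-end protein gene. The control ratio's interval included 0 for Clasp2 (-0.40, -0.87 to 0.01) and for BC051226 (0.38, -0.04 to 0.74), so their control sign is uncertain, and excluded 0 for the other 4. The difference was -1.96 for Rpp40, -1.79 for BC051226, -1.70 for Tubb4b, -1.69 for Vps28 and -1.65 for Gapdh. Tubb4b stood at 875 CPM in control low barcodes, 206 after 3 h and 121 after 6 h, against 707, 423 and 317 CPM in reference cells.

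Barcodes just below the depth of the low range also differed between libraries. At 1000 to under 2000 UMIs, 91.7% of the barcodes of the 3 h library and 89.8% of those of the 6 h library had over 20% mitochondrial UMIs, against 56.1% in the control.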

How the results depend on the processing

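No paired analysis was possible because each condition had 1 library and no result comes from a test. Counting error limits the ranges over 20%, whose profiles held 226879 to 331470 non-mitochondrial UMIs. The choices below shift how many barcodes and genes are counted (the mitochondrial ranges, all-UMI scaling, totals without 3 genes and equal weights by range were added after seeing the data). In each of the 3 UMI ranges tried, the control had the highest share of low barcodes and of low barcodes under 5% mitochondrial UMIs. Values are listed as control, 3 h and 6 h.

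With 5000 to under 14000 UMIs there were 220, 116 and 117 low barcodes, 138 control barcodes under 5% and 19, 25 and 21 over 20%. The mitochondrial share was 6.45%, 10.5% and 10.6%, and the Malat1 log2 ratio 0.44, 1.52 and 1.64. The control had 104 genes at least 2-fold higher, and 71 and 76 were lower after 3 and 6 h. Under 5%, 4 genes were higher in the control, and 8 and 5 lower after 3 and 6 h. With 2000 to under 10000 UMIs the mitochondrial share was 10.7%, 31.3% and 25.5%, the Malat1 ratio 0.12, 2.09 and 2.24, and 127, 1128 and 901 genes were lower. Under 5% the 3 h library kept 30 barcodes, with 59 genes higher and 71 lower, and the 6 h library 32 and 19.

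Limited to 1 to 20% mitochondrial UMIs, low barcodes numbered 266, 98 and 135. Genes higher were 144 in the control and 1407 after 3 h, genes lower 70 and 76 after 3 and 6 h, and the Malat1 ratio was 1.27 and 1.70. Against the control, 159 and 251 genes were lower among these barcodes. The mean of per-barcode mitochondrial shares was 13.0%, 34.6% and 28.3%.

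Totals without mitochondrial UMIs gave 16, 43 and 45 genes lower, 1714 and 1925 higher after 3 and 6 h, Malat1 ratios of 0.40, 1.99 and 2.31, and 173 and 268 genes lower than in control low barcodes. TMM factors gave 372 and 470 higher and 1114 and 1466 lower after 3 and 6 h, with Malat1 at 1.38 and 1.64, and 650 and 807 higher and 1192 and 1415 lower than in control low barcodes. Scaling to all UMIs gave 131, 111 and 130 genes higher and 1439, 1701 and 1550 lower over 20%.

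A floor of 50 CPM gave 12, 179 and 231 genes higher and 4, 144 and 186 lower, and no floor 782, 2590 and 2895 higher and 202, 410 and 495 lower. A prior of 5 counts gave 89 genes higher in the control and 7, 135 and 175 lower. Equal weight per barcode gave 128, 1199 and 1020 lower, 601 higher after 3 h and Malat1 at 0.0921, 1.75 and 2.13. Under 5% it gave 1 gene higher in the control, 7 and 5 lower after 3 and 6 h, and Malat1 at -2.35, 0.47 and 0.28.

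A reference of 15000 to under 30000 UMIs gave Malat1 at 0.28, 1.38 and 1.88, with 348 genes higher and 155 lower after 3 h and 742 higher after 6 h. A reference without the mitochondrial limit gave 0.39 in the control. Leaving Gm42418, AY036118 and Lars2 out of the totals gave 2.05 after 6 h. Subtracting free RNA as 10% of the UMIs gave 78, 416 and 564 genes lower and Malat1 at 0.38, 1.81 and 2.15. It also reversed Lars2 (-8.45), AY036118 (-9.14) and Gm42418 (-12.99) in the control, by construction: the amount subtracted exceeded their counts, which were then set to 0.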
